A study of Mus musculus with 12 samples.

Results

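The genes Tecta, Tectb, Otog, Otogl, Otoa and Oc90 encode proteins of the acellular gels that lie over the sensory cells of the inner ear. They were taken by symbol from the deposited tables, and all 6 were listed in every library of both organs, among 29641 genes listed in either organ. Groups were Gfi1Cre/Cre;RiboTagHA/HA mutants, in which each Gfi1 allele carries Cre, and Gfi1Cre/+;RiboTagHA/HA heterozygotes, with Cre on a single copy, each sampled as cochlea and as vestibule at postnatal day 0 to 1 with 3 libraries per group and 12 in all. RiboTag mice carry a ribosomal protein that gains an HA tag in cells with Cre, here on both alleles in every group, and the RNA was that pulled down with an antibody against HA to enrich hair cells. Both genotypes thus carried Cre, and a higher dose of Cre and the missing intact Gfi1 allele cannot be told apart in mutants. The cochlear libraries were made with the NuGEN Ovation Ultralow kit and the vestibular ones with the NEBNext Ultra Directional kit, so organ and kit cannot be told apart and levels were not compared between organs. Values are CPM, read counts scaled to a common library total.

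The tectorial membrane of the cochlea is a sheet of collagen fibrils in a matrix of alpha-tectorin (Tecta) and beta-tectorin (Tectb), to which the longest stereocilia of outer hair cells attach. Otogelin (Otog) and otogelin-like (Otogl) are large mucin-like glycoproteins of this sheet and of the membranes over the vestibular epithelia. Otoancorin (Otoa) joins such gels to the surface of nonsensory cells, and Oc90 encodes otoconin, the main soluble protein of the otoconia, the calcium carbonate crystals that load the otolithic membranes. These proteins are known mainly as products of supporting and other nonsensory epithelial cells. In bulk libraries, fewer cells of a type and less RNA per cell cannot be told apart.

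In the GENCODE M21 annotation on GRCm38 each member is a protein-coding gene. Tecta lies on chromosome 9 (42329619 to 42399929, minus strand), Tectb on chromosome 19 (55180733 to 55196313, plus strand) and Oc90 on chromosome 15 (65876053 to 65912397, minus strand). Otog (46240987 to 46311434) and Otoa (121081650 to 121163097) lie far apart on the plus strand of chromosome 7, and Otogl lies on chromosome 10 (107760531 to 107912134, minus strand). Of the exon bases of Tecta, 4.10% are shared with the antisense gene Gm47629, and of those of Tectb 1.49% with Mir6715. Mir6715 lies on the same strand as Tectb, so a strand setting could not separate these genes. For Tecta no strand setting of the counting is given in these sources. Reads from these stretches could therefore not be assigned to a gene.

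GFI1 is a zinc finger repressor whose binding sites hold the core AATC. RefSeq windows upstream of the start site (build GRCm38.p6) were at hand for 4 of the 6 members, Tecta, Tectb, Otog and Otoa. The 250 bases before the start are shown for Otoa (chr7:121083174-121083423, plus strand), the member whose vestibular groups did not overlap, and for Tecta (chr9:42399948-42400197, minus strand), the member with the most cochlear reads. Each is written 5′ to 3′ on the strand of the gene, with AATC, or GATT where it is read on the opposite strand, in capitals.
Otoa: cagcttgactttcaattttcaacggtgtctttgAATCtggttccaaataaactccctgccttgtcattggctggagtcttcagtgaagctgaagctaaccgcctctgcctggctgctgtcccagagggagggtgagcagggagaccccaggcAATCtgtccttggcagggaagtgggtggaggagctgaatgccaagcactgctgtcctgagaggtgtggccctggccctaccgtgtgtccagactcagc
Tecta: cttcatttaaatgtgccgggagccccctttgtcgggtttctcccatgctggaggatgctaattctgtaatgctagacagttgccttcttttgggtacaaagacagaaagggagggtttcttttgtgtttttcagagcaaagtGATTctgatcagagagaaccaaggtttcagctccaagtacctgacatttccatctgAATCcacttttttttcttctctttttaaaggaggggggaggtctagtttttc
The Otoa start in RefSeq lies inside the longer GENCODE gene. AATC was found 2 times in the Otoa window, 2 times in the Tecta window shown, 3 times in the Tectb window and 2 times in the Otog window, counting both strands. Tecta had another RefSeq start, whose window (chr9:42401691-42401940, minus strand) is not shown and also held AATC 2 times. At least 1 AATC was present in 69% of 32851 windows of this length. CAGCTG, an E-box, was in none of the 4 members' windows and in 13% of all windows.

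The library totals were 7531518 to 9363796 reads in the cochlea and 18951026 to 29370267 reads in the vestibule, so that 1 read equals 0.107 to 0.133 CPM for cochlear libraries and 0.0340 to 0.0528 CPM for vestibular ones. The members drew at least 412 reads in each cochlear library and 948 in each vestibular one. Gfi1 had 64.3 to 75.1 CPM in cochlear mutants against 106 to 165 CPM in heterozygotes. In the vestibule it had 198 to 236 CPM in mutants against 450 to 534 CPM in heterozygotes. Defining markers of hair cells were present, since all 12 genes of the hair cell list were listed and tested in both organs. The pull-down also held RNA known from other cells. In the vestibule macrophage markers summed to 6786 to 7941 CPM in mutants, against 7137 to 9042 CPM in heterozygotes. In the cochlea they summed to 2658 to 3256 CPM in mutants, against 2189 to 2752 CPM in heterozygotes. Of 10 macrophage genes 1 was higher in mutant cochleae at a limma adjusted p under 0.05, where 1.9% of all genes were. The libraries numbered 3 in the cochlea stood apart in both genotypes by mitochondrial transcripts, at 6805 CPM in the mutant and 6566 CPM in the heterozygote, against 22085 to 30893 CPM in the other 4. Both vestibular libraries numbered 1 stood apart for several members.

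Per kilobase of exon, Oc90 and Tecta were the most abundant members in the cochlea. Oc90 had 221 ± 43.7 CPM per kb in mutants and 206 ± 53.8 in heterozygotes, and Tecta had 198 ± 7.37 CPM per kb in mutants and 194 ± 10.7 in heterozygotes (SD, n = 3 each). The order of these 2 changed between libraries, and their ranges overlapped. Tectb followed at 75.1 ± 16.1 CPM per kb in mutants and 67.7 ± 9.02 in heterozygotes, then Otogl at 33.9 ± 3.36 in mutants and 31.4 ± 0.19 in heterozygotes. Otog had 14.2 ± 3.54 CPM per kb in mutants and 14.4 ± 4.88 in heterozygotes, and Otoa 7.69 ± 1.22 in mutants and 7.72 ± 1.11 in heterozygotes. From Tectb down, neighbours in this order did not overlap in range. The ranks of Tectb and Otoa depend on the length used, because their exons cover 3820 and 8439 bases while their longest coding transcripts have 1349 and 3773. With that transcript length Tectb changed places with Tecta and Oc90 between libraries, and Otoa came above Otog in 5 of 6 libraries.

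In the vestibule Oc90 was the most abundant member per kilobase in all 6 libraries, at 373 ± 107 CPM per kb in mutants and 584 ± 249 in heterozygotes (SD, n = 3 each). Otog came next at 51.9 ± 18.9 CPM per kb in mutants and 61.3 ± 29.8 in heterozygotes. Otoa had 20.9 ± 0.85 CPM per kb in mutants and 27.8 ± 4.27 in heterozygotes, and Tecta 19.6 ± 3.14 in mutants and 20.6 ± 5.57 in heterozygotes. Tectb had 13.1 ± 0.80 CPM per kb in mutants and 15.2 ± 3.35 in heterozygotes, and Otogl 12.9 ± 4.05 in mutants and 13.2 ± 5.54 in heterozygotes. Among these last 4, neighbours in the order overlapped in range, and Otoa ranked above Otog in some libraries when the longest coding transcript set the length. With that length Tectb ranked above Tecta in all 6 libraries, and above Otog in mutant replicate 1. The level of Otog over that of Otogl per kilobase was 0.417 ± 0.079 in mutant cochleae and 0.460 ± 0.153 in heterozygous ones. In the vestibule it was 4.10 ± 1.00 in mutants and 4.65 ± 0.82 in heterozygotes. In both organs the genotypes overlapped in this ratio.

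**Figure D1:**
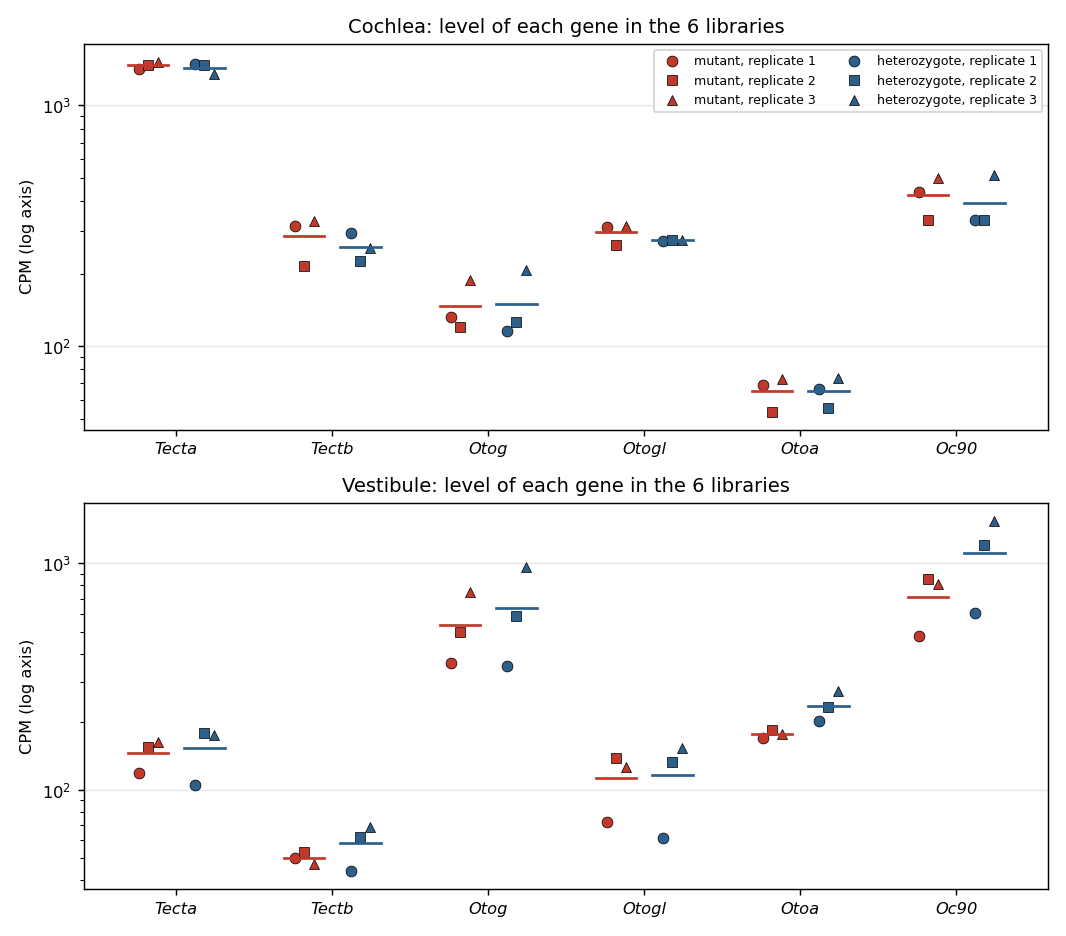
CPM of each gene (y axis, logarithmic) in the 6 cochlear (upper panel) and 6 vestibular libraries (lower panel), mutants left of heterozygotes. Points are libraries, with the shape giving the replicate number, and bars are means of 3. In the cochlea mutant and heterozygous libraries overlap for every gene, and in the vestibule Otoa alone has all mutant libraries (169 to 183 CPM) below all heterozygous ones (201 to 272 CPM).

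The cochlear comparison asks whether these genes differ in the pulled-down RNA of mutants and heterozygotes, which also held RNA known from other cells. None of the 6 was called (limma on log2(CPM + 1), Benjamini-Hochberg adjusted p under 0.05 over 17985 genes), where 4.41% of all tested genes were. Fitted differences lay between -0.01 and 0.13 on the log2(CPM + 1) scale, and mutant and heterozygous libraries overlapped for every member, where 17.5% of all genes did not overlap. At an unadjusted p under 0.05 there was also none of the 6, against 12.1% of all genes, and edgeR and DESeq2 on the recovered reads, which called 4.52% and 5.31% of all genes, called no member. A fit with the replicate number as a block, which called 8.52% of all genes, called none of the members either.

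Of the tectorins, Tecta had 1412, 1474 and 1521 CPM in mutants (replicates 1 to 3) and 1485, 1477 and 1343 CPM in heterozygotes. The 6 libraries lay close together, and the difference of 0.03 (SE 0.14) had a 95% interval of -0.26 to 0.33 (limma, adjusted p = 0.981). Its sign turned to -0.01 with median-of-ratios rescaling and to -0.02 with TMM. Tectb had 314, 216 and 330 CPM in mutants and 294, 225 and 256 CPM in heterozygotes. Replicate 2 was low for Tectb in both genotypes, and the difference was 0.13 (SE 0.16; interval -0.22 to 0.49; limma, adjusted p = 0.888).

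Of the otogelins, Otog had 132, 120 and 189 CPM in mutants and 115, 126 and 207 CPM in heterozygotes. Replicate 3 was the highest in both genotypes, and the difference was -0.00091 (SE 0.21; interval -0.46 to 0.46; limma, adjusted p = 1.00). Without both replicate 3 libraries it was 0.07. Otogl had 312, 263 and 315 CPM in mutants and 273, 276 and 276 CPM in heterozygotes. The heterozygous libraries spread little and the mutant ones lay on both sides of them, with a difference of 0.11 (SE 0.12; interval -0.15 to 0.37; limma, adjusted p = 0.869).

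Otoa, which attaches the membrane to nonsensory cells, had 68.7, 53.2 and 72.7 CPM in mutant cochleae and 66.4, 55.2 and 73.8 CPM in heterozygous ones. Each mutant library lay near the heterozygous library of the same number, and the difference was -0.01 (SE 0.16; interval -0.35 to 0.33; limma, adjusted p = 0.996). Oc90 had 436, 333 and 499 CPM in mutants and 334, 335 and 513 CPM in heterozygotes. Replicate 3 was the highest in both genotypes, mutant replicate 1 lay above heterozygous replicate 1, and the difference was 0.11 (SE 0.19; interval -0.29 to 0.51; limma, adjusted p = 0.926). The intervals of the 6 members reached at most 1.43-fold higher, for Oc90, and down to 0.727-fold, for Otog, without the block.

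In the same cochlear libraries most of the hair cell list was lower. Without the block 6 of 12 genes were called lower and none higher, where 2.52% of all genes were called lower and 1.9% higher. With the block 9 were called lower and 1, Atoh1, higher (0.47; limma, adjusted p = 0.0323; without the block 0.254). There 8.52% of all genes were called in either direction. The summed hair cell level was 2951 to 3505 CPM in mutants and 4341 to 5077 CPM in heterozygotes. Most of it was Myo6, an unconventional myosin, at 2337 ± 211 CPM in mutants and 3234 ± 298 CPM in heterozygotes (SD, n = 3 each), which was not called without the block (-0.47; limma, adjusted p = 0.188; with the block 0.00916). Of 16 supporting cell genes only S100a1, a calcium-binding protein, was called. It had 33.1 ± 1.21 CPM in mutants and 56.4 ± 3.89 CPM in heterozygotes, a difference of -0.75 (SE 0.14; limma, adjusted p = 0.00448). Of 7 genes of the medial nonsensory epithelium only Dkk3, a secreted protein, was called. It had 87.3 ± 6.75 CPM in mutants and 146.6 ± 35.2 CPM in heterozygotes, a difference of -0.72 (SE 0.16; limma, adjusted p = 0.0221), and without heterozygote replicate 1, mutant replicate 1 or mutant replicate 2 it was not called, with an adjusted p of up to 0.119. None of 7 tested roof and dark cell genes was called. The medians of the supporting, medial and roof lists were 0.08, 0.08 and 0.01, beside 0.05 for all genes, and the part of any of these cells in the members' levels was not tested.

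**Figure D2:**
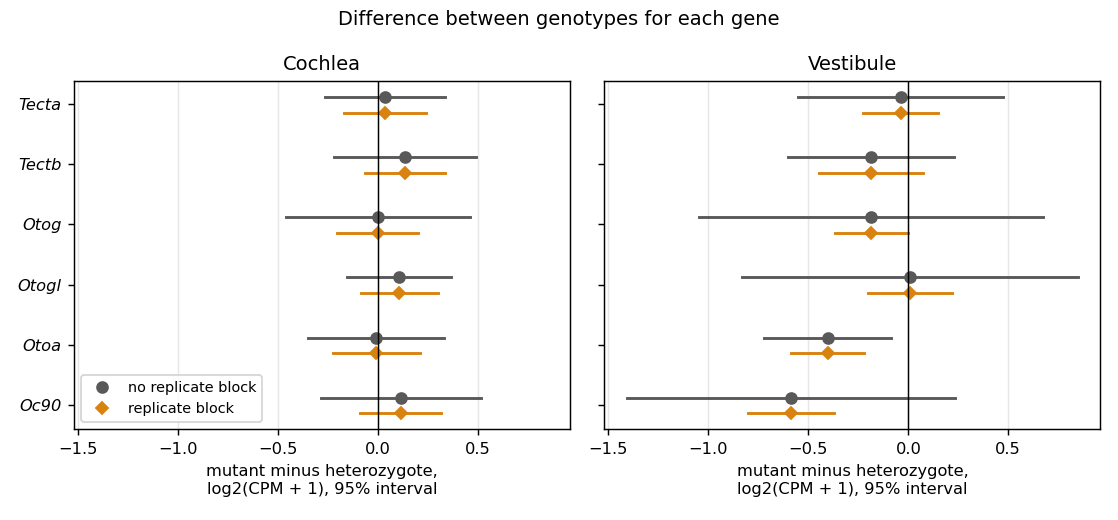
Difference between mutants and heterozygotes on the log2(CPM + 1) scale (x axis) for each gene, in the cochlea (left) and vestibule (right), with 95% intervals. Grey circles are the fit without and orange diamonds the fit with a replicate block. All cochlear intervals include 0, and in the vestibule the block narrows those of Otoa and Oc90 (SE 0.09 and 0.10) around the same values of -0.40 and -0.59.

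In the vestibule Oc90 and Otoa had the largest differences of the 6, both lower in mutants, and neither was called without a replicate block. No member was called, where 3.5% of 15595 genes were (limma, Benjamini-Hochberg adjusted p under 0.05), and 1 of the 6, Otoa, had an unadjusted p under 0.05, against 16.1% of all genes. edgeR and DESeq2 on the recovered reads called no member, against 3.36% and 7.95% of all genes. With the replicate number as a block Oc90 and Otoa fell (2 of 6), where 23.3% of all genes were called and 12.8% were called lower. Same-numbered vestibular libraries deviated together, so the block removed a spread that the other fit counted as error.

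Oc90 had 478, 851 and 812 CPM in mutant vestibules and 604, 1204 and 1544 CPM in heterozygous ones. Each mutant library lay below the heterozygous library of the same number, by 0.34, 0.50 and 0.93 on the log2(CPM + 1) scale, but the groups overlapped, and replicate 1 was low in both genotypes. The difference was -0.59 (SE 0.36; interval -1.41 to 0.23; limma, adjusted p = 0.487) without the block. With the block it was -0.59 (SE 0.10; interval -0.80 to -0.37; limma, adjusted p = 0.000772). Without both replicate 1 libraries it was -0.71, and was called without the block (limma, adjusted p = 0.0244), where 5.16% of all genes were. Replicate 1 was the only vestibular pair left out in a fit without the block. The uncalled difference without the block was -0.98 without heterozygote replicate 1, -0.30 without heterozygote replicate 3 and -0.32 without mutant replicate 1.

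Otoa had 169, 183 and 176 CPM in mutants and 201, 231 and 272 CPM in heterozygotes. All mutant libraries lay below all heterozygous ones, as they did for 11.6% of the tested genes, and the mutant libraries spread less. The difference was -0.40 (SE 0.14; interval -0.72 to -0.09; limma, adjusted p = 0.190), and with the block -0.40 (SE 0.09; interval -0.59 to -0.22; adjusted p = 0.00351). Without both replicate 1 libraries, the only pair left out without the block, it was -0.48 and was called (limma, adjusted p = 0.0479). In that fit 5.16% of all genes were called.

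The pair of otogelins followed the replicate number more than the genotype. Otog had 365, 498 and 749 CPM in mutants and 353, 588 and 963 CPM in heterozygotes. It was lowest in replicate 1 and highest in replicate 3 of both genotypes, with a difference of -0.18 (SE 0.37; interval -1.04 to 0.68; limma, adjusted p = 0.881; with the block 0.141). Otogl had 72.3, 139 and 127 CPM in mutants and 61.1, 133 and 153 CPM in heterozygotes. Replicate 1 was low in both genotypes, and the difference was 0.01 (SE 0.37; interval -0.83 to 0.85; limma, adjusted p = 0.995), with a sign that turned to -0.11 without both replicate 1 libraries.

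Of the tectorins, Tecta had 119, 155 and 163 CPM in mutant vestibules and 105, 178 and 174 CPM in heterozygous ones. Replicate 1 was again low in both genotypes, and the difference was -0.04 (SE 0.22; interval -0.55 to 0.48; limma, adjusted p = 0.965), turning to 0.01 with median-of-ratios rescaling. Tectb had 50.0, 53.1 and 47.0 CPM in mutants and 43.7, 62.1 and 68.3 CPM in heterozygotes. The mutant libraries spread less than the heterozygous ones, within whose range they lay. The difference was -0.19 (SE 0.18; interval -0.60 to 0.23; limma, adjusted p = 0.693; with the block 0.298). Otog and Tectb were called lower with the block only when both replicate 1 libraries were left out, at -0.30 (limma, adjusted p = 0.00233) and -0.38 (adjusted p = 0.0147). That fit left few libraries to measure a gene's own spread, and it called 3206 of 15100 genes.

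**Figure D3:**
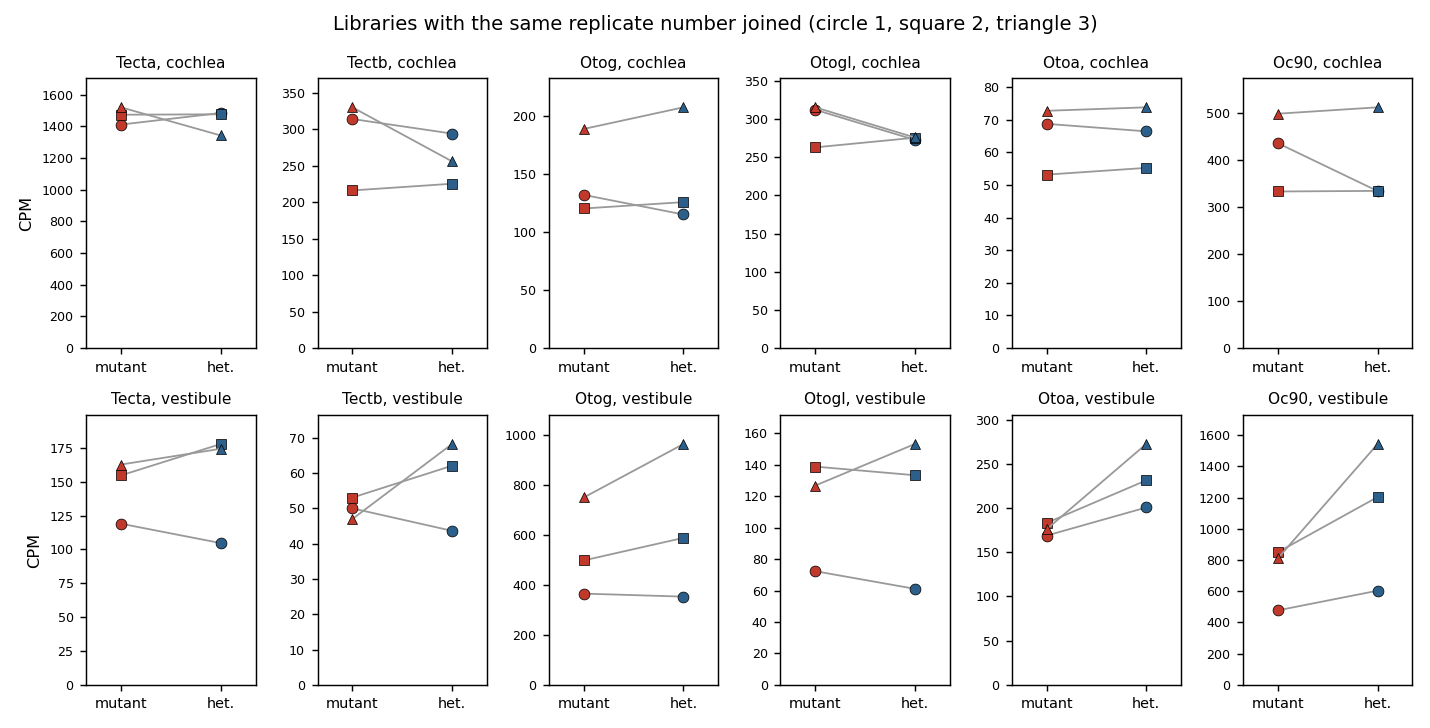
CPM (y axis, from 0) of each gene in mutants (left of each panel) and heterozygotes (right), with libraries of the same replicate number joined. Upper panels show the cochlea and lower panels the vestibule. In the vestibule all 3 lines of Otoa and of Oc90 lie higher at the heterozygous end, and replicate 1 is the lowest point in both genotypes for Tecta, Otog, Otogl, Otoa and Oc90.

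Mesenchyme markers were also lower in mutant vestibules. All 8 mesenchyme genes were listed and tested, 2 were called lower without the block (Col1a1 and Col3a1) and 8 with it, where 1.09% and 12.8% of all genes were called lower without and with the block. The call of Col1a1 was lost without heterozygote replicate 2 or 3 or any mutant replicate, with an adjusted p of up to 0.128, and in edgeR. Over the list the summed level was 1003 to 1363 CPM in mutants and 1864 to 2403 CPM in heterozygotes. Of 7 tested roof and dark cell genes none was called without the block. With it 6 were lower, where 12.8% of all genes were, among them Lrp2, an endocytic receptor (-0.67), and Otx2, a homeobox factor (-0.71), while Slc12a2, a chloride cotransporter, was higher (0.31). Their sum, most of it Slc12a2, was 345 to 450 CPM in mutants and 343 to 448 CPM in heterozygotes, and the list's median was -0.62, beside -0.06 for all genes.

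Supporting cell genes were mixed in the vestibule. None of 16 was called without the block, and with it 4 were called higher (Sox2, Prox1, Hey1 and Sox9) and 5 lower (Hes1, Gjb2, Gjb6, Slc1a3 and Sox10), where 10.5% of all genes were called higher and 12.8% lower. Their summed level was 1435 to 1473 CPM in mutants and 1297 to 1494 CPM in heterozygotes, with a median of -0.30 that was 0.02 when only genes above 5 CPM were kept. Of 4 tested genes of the medial nonsensory list none was called without the block. With it 1, Isl1, was called lower (-0.37; limma, adjusted p = 0.0217), where 12.8% of all genes were. Hair cell genes had 2 of 12 called higher without the block (Atoh1 and Pvalb) and 6 higher and 1 lower with it, where 2.41% and 10.5% of all genes were called higher without and with the block. Their sums were 9363 to 10142 CPM in mutants and 8302 to 9192 CPM in heterozygotes. Mitochondrial transcripts were lower in each mutant library than in the heterozygous one of the same number, at 2331, 5072 and 1238 CPM in mutants and 7110, 8459 and 2670 CPM in heterozygotes. Of 6 tested none was called without the block and 6 were called lower with it. Of all genes 1.09% were called lower without and 12.8% with the block. The part of any of these lists in the lower Oc90 and Otoa levels was not tested.

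The differences of the members in the cochlea and in the vestibule were compared by an interaction term over the 12 libraries. None of the 6 was called without the block, where 3.14% of 14674 genes were, and none had an unadjusted p under 0.05, against 13.3%. Oc90 had the largest value, a cochlear minus vestibular difference of 0.70 (SE 0.44; interval -0.25 to 1.65; limma, adjusted p = 0.558). With the replicate block it was 0.70 (SE 0.16; limma, adjusted p = 0.00699), where 13.3% of all genes were called. Otoa had 0.39 (SE 0.22; limma, adjusted p = 0.481), and with the block an adjusted p of 0.0520.

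Other components of these membranes, from lists of 8 tectorial and 11 otoconial genes, included 3 called without the block, Otol1, Strc and Atp2b2. Of all tested genes 4.41% were called in the cochlea and 3.5% in the vestibule. Otol1, which encodes otolin, a collagen-like scaffold protein of otoconia (chromosome 3, 70007613 to 70028708), rose in both organs. It had 19.9, 15.0 and 18.4 CPM in mutant cochleae and 4.95, 7.17 and 6.51 CPM in heterozygous ones, with no overlap, a difference of 1.38 (SE 0.22; limma, adjusted p = 0.00163). In the vestibule it had 170, 208 and 237 CPM in mutants and 49.7, 106 and 88.0 CPM in heterozygotes, again with no overlap, a difference of 1.38 (SE 0.27; limma, adjusted p = 0.0294; with the block 1.24e-06). That vestibular call was lost without heterozygote replicate 3, mutant replicate 2 or mutant replicate 3, with an adjusted p of up to 0.124, and without a filter on low values, at 0.0823. The cochlear minus vestibular difference of Otol1 was 0.0021 with an interval of -0.72 to 0.72 (limma, adjusted p = 0.998). Its sign in the vestibule was opposite to that of Oc90.

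Strc encodes stereocilin, the hair cell protein by which outer hair cell stereocilia attach to the tectorial membrane (chromosome 2, 121363728 to 121387168). It had 4.12, 4.52 and 9.96 CPM in mutant cochleae and 63.3, 33.9 and 49.8 CPM in heterozygous ones, and fell by 2.84 (SE 0.29; limma, adjusted p = 6.17e-05). In the vestibule it had 164 ± 17.2 CPM in mutants and 203 ± 13.7 CPM in heterozygotes (SD, n = 3 each), a difference of -0.31 (limma, adjusted p = 0.270; with the block 0.00874). The organs differed, with an interaction of -2.53 (SE 0.36; limma, adjusted p = 0.000954).

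Atp2b2, the plasma membrane calcium pump of hair bundles, had 127 ± 25.4 CPM in mutant cochleae and 209.5 ± 16.0 CPM in heterozygous ones, a difference of -0.73 (SE 0.15; limma, adjusted p = 0.0108). Without heterozygote replicate 1 or mutant replicate 1 it was not called, with an adjusted p of up to 0.0666. In the vestibule it had 481 ± 29.1 CPM in mutants and 422 ± 22.7 CPM in heterozygotes, a difference of 0.19 (limma, adjusted p = 0.502), and the organs differed by -0.92 (SE 0.21; adjusted p = 0.0245). Ceacam16, a tectorial membrane protein of the carcinoembryonic antigen family, had at most 0.125 CPM in the cochlea and 0.848 CPM in the vestibule and was not tested. Otop1, a proton channel needed for otoconia, was not in the cochlear list. In the vestibule it had 8.03 ± 1.82 CPM in mutants and 10.3 ± 5.34 CPM in heterozygotes (limma, adjusted p = 0.862).

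Of the 7 tested tectorial genes, Strc alone was called in the cochlea, 1 lower and none higher, where 2.52% of all genes were called lower and 1.9% higher. In the vestibule none was called without the block and all 7, Strc and the 6 fibrillar and associated collagen genes, were called lower with it, where 12.8% of all genes were. Their median was -0.67, beside -0.06 for all genes. Col2a1, the main tectorial collagen chain, which cartilage and mesenchyme also use, had 1772, 1201 and 1280.2 CPM in mutant vestibules and 2864, 1970 and 2314 CPM in heterozygous ones. Each mutant library lay below the heterozygous library of the same number and below the lowest heterozygous one, and the difference was -0.75 (SE 0.21; limma, adjusted p = 0.109; with the block 2.65e-05). Of 7 tested otoconial genes in the cochlea 1 was called higher and 1 lower, where 1.9% and 2.52% of all genes were called higher and lower. Of 10 in the vestibule 1 was called higher without the block, where 2.41% of all genes were. With it 1 was higher and 4 lower, where 10.5% and 12.8% of all genes were called higher and lower. The 4 lower ones were Sparc, a collagen- and calcium-binding matrix protein (-0.31), Nox3 and Noxo1, a catalytic subunit and an organizer of the oxidase needed for otoconia (-0.66 and -0.48), and Zpld1, a zona pellucida domain protein (-0.35).

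**Figure D4:**
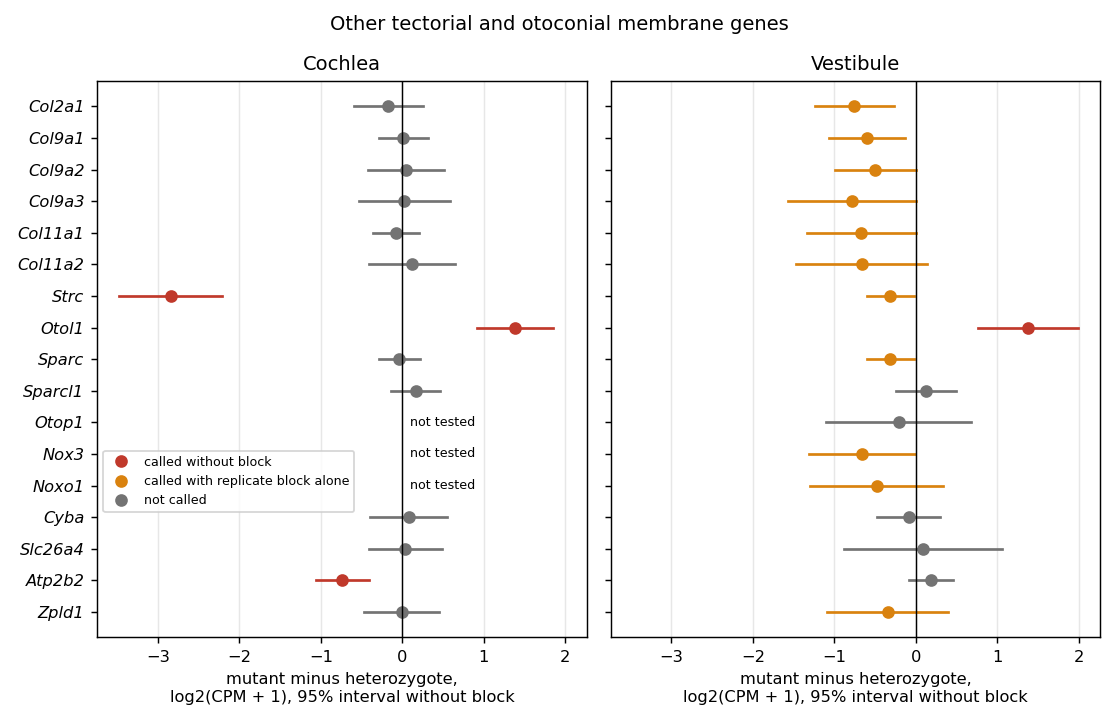
Difference between mutants and heterozygotes on the log2(CPM + 1) scale (x axis) for 17 other tectorial and otoconial genes, in the cochlea (left) and vestibule (right). Points are fitted values with 95% intervals without the block, and colours give the call. Otol1 lies at 1.38 in both organs, Strc at -2.84 in the cochlea and -0.31 in the vestibule, and the vestibular collagens lie below 0.

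Across the 12 libraries, each centred on the mean of its organ, some members varied together. The values that follow are Pearson correlations of log2(CPM + 1), given as descriptions, and the libraries share pull-down, depth and replicate structure. Tecta and Otogl were the most alike pair (r = 0.935), with 0.97 within the vestibule and 0.11 within the cochlea. Oc90 was most like Otog (0.865) and Otoa (0.834) over the 12 libraries, at 0.92 and 0.84 within the cochlea. Within the vestibule its correlations with all 5 other members were close to each other, from 0.845 to 0.854. Tecta and Otoa were the least alike (0.338). In the vestibular libraries numbered 1 of both genotypes, Tecta, Otog, Otogl and Oc90 lay 0.27 to 0.81 below their genotype means.

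The 3 genes most like each member were found by the same measure over the 12 libraries. Oc90 was most like Ppia (0.976), Tia1 (0.976) and Gas5 (0.972), and Otoa like Mtg2 (0.943), Rpl27a (0.926) and Saal1 (0.923). Otog was most like Ubp1 (0.983), Ogt (0.982) and Zmym6 (0.981), and Otogl like Ubn2 (0.976), Thoc2 (0.971) and Ap4e1 (0.970). For Tecta these were Mkl2 (0.966), Zfp280d (0.961) and Arl5b (0.955), and for Tectb Pgap2 (0.924), Rhou (0.915) and Alg6 (0.911). None of the 18 was another member or a gene of the tectorial or otoconial lists.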

How the data were processed

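RNA bound to HA-tagged ribosomes was measured in 12 libraries, described by the labels as biological triplicates. The deposited values were CPM, per the file headers, with 1 table per library made by the authors. The submitters' processing notes name TopHat and GRCm38 with no version. The counting tool, strand setting and annotation are not given in these sources. Every value was a whole multiple of that of 1 read (100% of values, tolerance 1e-06), so whole reads were recovered, and 0.184% to 0.211% of cochlear and 0.119% to 0.729% of vestibular reads lay outside the listed genes. Cochlear tables list 28342 genes, vestibular ones 24726. The organ of vestibular libraries was taken from their titles and the genotype from the source name.

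Within each organ, genes reaching 1 CPM in 3 or more of its 6 libraries were tested. Differences were fitted on log2(CPM + 1) with limma 3.58.1 (trend; R 4.3.3), a scale that understates changes of low genes, with Benjamini-Hochberg adjustment over all tested genes and a call under 0.05. A single fit of the 12 libraries gave the interaction. edgeR 4.0.16 and DESeq2 1.42.0 on recovered reads, a replicate block, other pseudocounts, filters, rescalings and leaving out libraries were alternatives. Scripts were checked on simulated data. The labels do not say that a replicate number marks a shared litter or day. Deviations from group means over genes correlated between same-numbered libraries, however, at 0.226, 0.226 and 0.420 in the cochlea. In the vestibule they did so at 0.766, 0.508 and 0.599, and all were above 0.1. Different-numbered libraries reached at most 0.013 in the cochlea. In the vestibule, though, mutant replicate 3 and heterozygote replicate 2 reached 0.318, and mutant replicate 2 and heterozygote replicate 3 reached 0.220. Each library was most like the one of its own number in the other genotype. The numbers were therefore taken to pair the libraries, though pairing is not shown by the labels, and blocked values are given where they change a call.

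The members, the 11 gene lists and the tests were chosen with earlier results of these data known. The result of 1 of these lists is not reported here. All members were named. Of the tectorial, otoconial, supporting, medial and roof lists the genes called without the block were named. Strc, Ceacam16, Otol1 and Otop1 were named whatever their result. For each member the 3 genes of highest correlation were named, leaving out predicted genes. Examples among genes called with the block alone, Col2a1, Myo6 and the called mesenchyme and hair cell genes were picked after their values were seen. Levels per kb used GENCODE M21 exons merged over transcripts. Promoter sequences are from RefSeq. Means carry the SD over 3 libraries. Figures were drawn with matplotlib 3.10.9.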

Additional observations from a re-analysis of the deposited data

Results flagged for a closer look

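The difference of Oc90 between genotypes differed between the organs in the fit with a replicate block. The cochlear minus vestibular difference was 0.70 (SE 0.16; limma, Benjamini-Hochberg adjusted p = 0.00699), where 13.3% of all genes were called. Organ and library kit cannot be told apart in this difference. Oc90 was lower in 3 of 3 vestibular pairs of same-numbered libraries (-0.34, -0.50 and -0.93 for replicates 1 to 3). The cochlear pairs differed by 0.38, -0.0054 and -0.039. Without the block the same difference had an adjusted p of 0.558, and over the alternatives its adjusted p ranged from 0.00699 to 0.785.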

How the results depend on the processing

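No member was called in the cochlea under any of the 20 alternatives run there. In the vestibule Oc90 and Otoa kept a negative difference under all 20, and no other setting than those named here made them, Otog or Tectb called. With the replicate block Oc90 was -0.59 and Otoa -0.40 in the vestibule (2 members called, where 23.3% of all genes were). The organ difference of Oc90 was 0.70 with the block (1 called, where 13.3% of all genes were). The block with edgeR on recovered reads gave Oc90 -0.55 and Otoa -0.37 in the vestibule (2 called). Leaving out both vestibular replicate 1 libraries gave -0.71 and -0.48 without the block (2 called, where 5.16% of all genes were). With the block these values were the same, Otog was -0.30 and Tectb -0.38 (4 called). The block without both replicate 2 libraries gave Oc90 -0.63 and Otoa -0.44, and without both replicate 3 libraries -0.42 and -0.29 (2 called each). Fits without a pair left few libraries to measure a gene's own spread, and with the block they called many genes, as counted below. The block with edgeR called many genes too. The block changed no other call of a member.

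Signs turned only for uncalled differences. Tecta turned in the cochlea to -0.015 (median-of-ratios), -0.022 (TMM), -0.026 (edgeR), -0.019 (DESeq2), -0.022 (block with edgeR) and -0.038 (without both replicate 3 libraries, with or without the block). In the vestibule Tecta turned to 0.0052 (median-of-ratios), 0.0042 (TMM) and 0.042 (block without both replicate 2 libraries), and between organs to -0.020 (median-of-ratios). Otog turned in the cochlea to 0.066 without both replicate 3 libraries, with or without the block, and to 0.030 under the block without both replicate 2 libraries. Under the block without a pair, cochlear Oc90 turned to -0.022 (pair 1) and Otoa to 0.014 (pair 2). Vestibular Otogl turned to -0.11 without both replicate 1 libraries, with or without the block, and to -0.016 under the block without pair 2.

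Leaving out 1 library called no member. The cochlear differences then ranged from -0.012 to 0.063 (Tecta), 0.020 to 0.32 (Tectb), -0.19 to 0.26 (Otog), 0.060 to 0.19 (Otogl), -0.12 to 0.13 (Otoa) and -0.016 to 0.32 (Oc90). The vestibular ones ranged from -0.98 to -0.30 (Oc90), -0.51 to -0.29 (Otoa), -0.38 to -0.059 (Tectb), -0.29 to 0.099 (Tecta), -0.55 to 0.18 (Otog) and -0.40 to 0.30 (Otogl). The organ differences ranged from 0.42 to 1.09 (Oc90), 0.28 to 0.53 (Otoa), 0.19 to 0.51 (Tectb), -0.064 to 0.32 (Tecta), -0.18 to 0.55 (Otog) and -0.19 to 0.50 (Otogl).

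Genes called numbered 794 in the cochlea, and 1532 with the block, 1323 and 1629 with the block without pairs 1 and 2, and 1397 with the block in edgeR. In the vestibule they numbered 546 of 15595 tested, and 3634 with the block and 3340 with the block in edgeR, of the same 15595. They numbered 358 with no filter, 1234 in DESeq2, and 3206, 2601 and 3131 with the block without pairs 1 to 3. Leaving out 1 vestibular library gave 216 to 510, with 216 without heterozygote replicate 2, 286 without heterozygote replicate 3, and 333, 225 and 222 without mutant replicates 1 to 3. The organ difference had 461, 1955 with the block, and 300 (without vestibular heterozygote replicate 2) to 449 without 1 library. The block without a pair and the block in edgeR were added after the data were seen. The causes of these changes were not tested. The shift of the median of all genes under rescaling was under 0.1.

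With 3 libraries per group, the 95% interval without the block reached from -1.41 to 0.23 for vestibular Oc90, so a difference of that size could not be told from none.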
